A study of Mus musculus with 42 samples.

Results

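The mitochondrial ribosomal protein genes were examined in the spleens of female BALB/c mice injected with CpG oligodeoxynucleotides (ODN), short DNA strands that are sensed by the endosomal receptor TLR9. The genes were chosen by name: every gene symbol that starts with Mrpl or Mrps followed by a number and at most 1 letter. This gave 75 of the 15277 genes on the array, 47 with Mrpl symbols, the names of large-subunit proteins, and 28 with Mrps symbols, the names of small-subunit proteins. They were carried by 108 array features, 51 of them by 1 feature, 15 by 2 and 9 by 3 or more. The features of a gene were averaged.

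The 42 arrays fall into 10 groups. The untreated group held 6 spleens and every other group 4, which the labels call independent biological replicates. CpG mice received 400 µg of an equimolar mixture of CpG ODN 1555 and 1466 into the peritoneum, and spleens were taken 3 h, 9 h, 24 h, 72 h, 5 days, 7 days, 9 days or 14 days later. Control mice received 400 µg of ODN 1612 and 1471 by the same route and were examined at 3 h alone. No age is stated, and no group carries a transgene or other genetic change in the labels. Each value is a log2 ratio of whole-spleen RNA over a common mouse reference RNA hybridised to the same array, so a difference of 1 between groups is a 2-fold difference. Levels of different genes cannot be set against each other on this scale, because the reference has its own level of each gene.

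Mitochondria keep their own ribosome, which makes the few proteins still encoded in mitochondrial DNA, all of them parts of the respiratory chain and ATP synthase. Its RNA comes from mitochondrial DNA, but all of its proteins are encoded in the nucleus, made in the cytosol and imported. Lymphocytes are known to enlarge their mitochondrial mass and mitochondrial translation when they are activated and divide. The small subunit binds the messenger RNA, and the large subunit joins the amino acids. A share of the proteins descends from bacterial ribosomal proteins, and the others are particular to mitochondria.

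The mean level of the mitochondrial ribosomal protein genes was higher on the 24 h, 72 h and 5 day arrays than on the untreated arrays and lowest at 14 days, while 23 of the 75 members were called at none of the 3 earlier times. In untreated spleens, 57 of the 75 members had a mean below 0, with a median of -0.27, a lowest mean of -1.42 (Mrps6) and a highest of 0.74 (Mrpl32). The mean over the 70 members with a value on all arrays was -0.26 ± 0.05 (SD, n = 6) in untreated spleens. It was 0.14 ± 0.17 at 24 h, 0.08 ± 0.07 at 72 h and 0.14 ± 0.02 at 5 days (SD, n = 4 each), and -0.41 ± 0.04 at 14 days. The 4 arrays at 24 h stood at 0.18, 0.28, 0.18 and -0.10, and all of them were above the highest untreated array, -0.19. The 72 h arrays lay between -0.03 and 0.12 and the 5 day arrays between 0.13 and 0.17, also with no overlap with the untreated arrays. The 14 day arrays, between -0.46 and -0.36, all lay below the lowest untreated array, -0.33. The mean over all genes stayed between 0.08 and 0.13 in every group. In whole-spleen RNA, more cells of a type with high levels and more RNA per cell cannot be told apart.

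**Figure D1:**
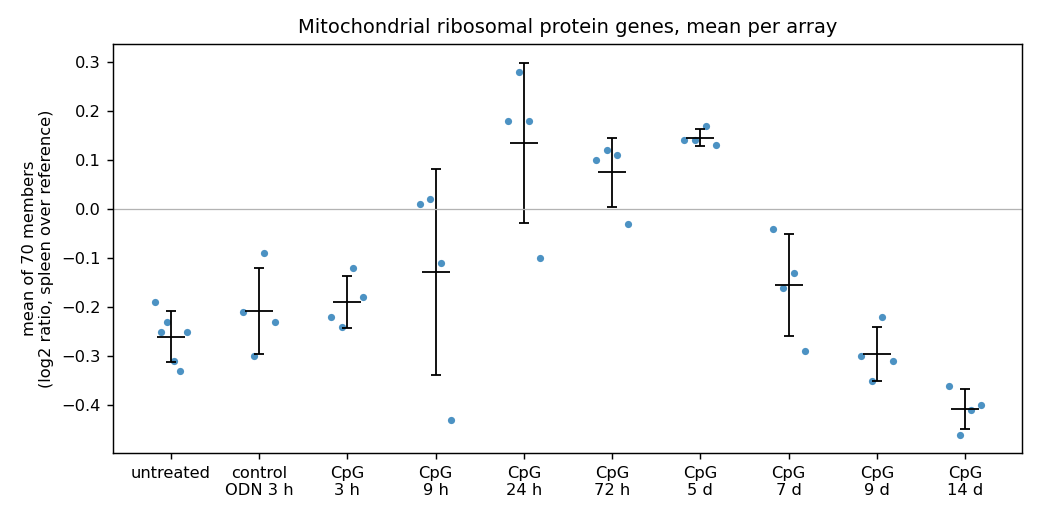
Each point is 1 array, its height the mean log2 ratio (spleen over reference) of the 70 mitochondrial ribosomal protein genes measured on all arrays; black lines give the group mean and SD. The arrays at 24 h, 72 h and 5 days lie above every untreated array, and the 14 day arrays, between -0.46 and -0.36, below every untreated array.

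At 24 h, 34 of the 75 members were called higher than untreated and 0 lower (limma, Benjamini-Hochberg adjusted p below 0.05). Of all genes tested, 8.03% were called higher and 2.87% lower at that time. The median difference over the members was 0.40, against 0.02 over all genes, and 68 of the 75 differences were above 0. At 72 h, 27 members were called higher and 0 lower, beside 8.94% and 6.01% of all genes, with a median of 0.38. At 5 days, 43 members were called higher and 0 lower, beside 17.5% and 13.4% of all genes, with a median of 0.40. These 3 comparisons share the same 6 untreated arrays. By symbol, 22 of 47 Mrpl and 12 of 28 Mrps genes were called higher at 24 h, 19 and 8 at 72 h, and 28 and 15 at 5 days. Members that did not overlap between the groups, with every CpG array above every untreated array, numbered 21 at 24 h (5.8% of all genes), 25 at 72 h (7.32%) and 38 at 5 days (13.6%). The counts depend on single arrays: 21 members were called at 24 h without replicate 2 and 22 without replicate 3, and 17, 11 and 10 at 72 h without replicates 1, 2 and 3. Without the 8 arrays that lacked over 1000 features, 30 members were called higher at 24 h, 6 at 72 h and 21 at 5 days, with medians of 0.39, 0.33 and 0.42.

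Few members were called at the other times. At 3 h, 2 were called higher and 0 lower (7.7% and 3.93% of all genes), with a median of 0.06. At 9 h, 5 were higher and 0 lower (5.07% and 3.45%), with a median of 0.12, and single arrays left out moved that count between 1 and 12. At 7 days, 5 were higher and 0 lower (8.68% and 6.89%), with a median of 0.11. At 9 days, 1 was higher and 1 lower (8.4% and 5.12%), with a median of -0.05. At 14 days, 1 was higher and 1 lower (2.77% and 1.77%), while 63 of the 75 differences were below 0 and the median was -0.16. By an F test over the 8 CpG times, 63 of 75 members differed from untreated at some time, 84.0% against 63.6% of all genes. By group means, 36 members had their highest CpG level at 24 h, 25 at 5 days and 6 at 72 h, and 41 had their lowest at 14 days.

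**Figure D2:**
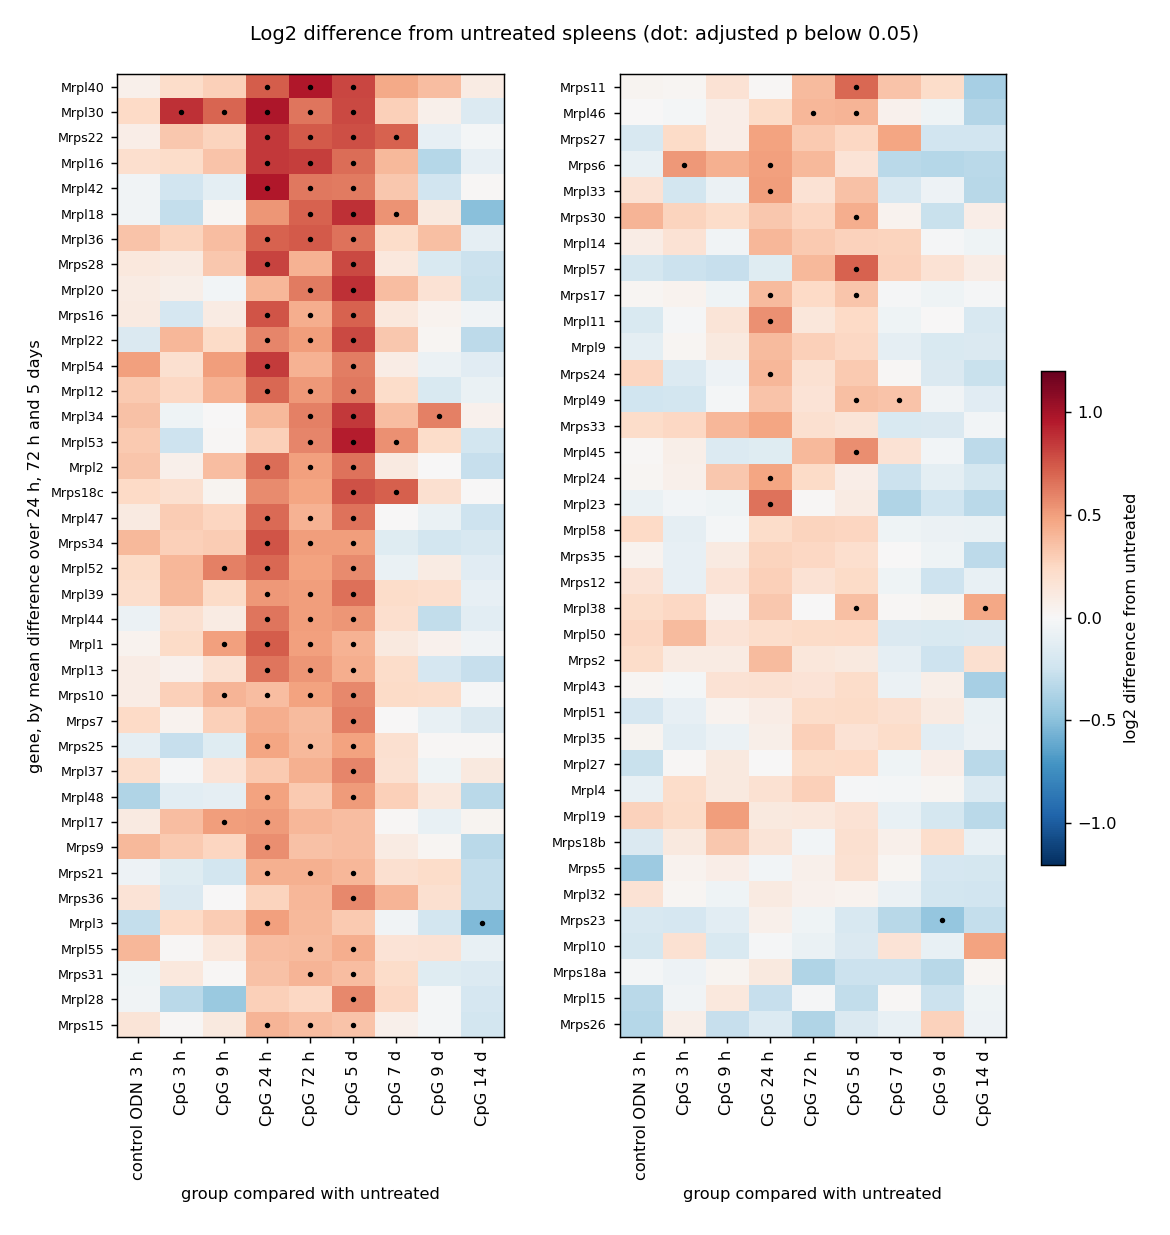
Rows are the 75 members, ordered by their mean difference over 24 h, 72 h and 5 days; columns are the 9 groups compared with untreated, colour is the log2 difference and a dot marks an adjusted p below 0.05. The dots gather in the 24 h, 72 h and 5 day columns, with 34, 27 and 43 members called higher there, and the 14 day column is mostly blue, with 63 of 75 differences below 0.

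Control ODN at 3 h gave 0 called members in either direction against untreated (limma), beside 2.45% of all genes higher and 1.07% lower. The median was 0.08, and 13 members had an unadjusted p below 0.05. Without control replicate 4 the same comparison called 6 members higher and 3 lower. CpG against control ODN at 3 h gave 5 members higher and 3 lower (9.23% and 11.5% of all genes), with a median of -0.01. The higher members were Mrpl30 (0.64 ± 0.18, SE, adjusted p = 0.00868), Mrps6 (0.61), Mrpl22 (0.56), Mrpl3 (0.53) and Mrps5 (0.48). The lower members were Mrpl53 (-0.56), Mrps24 (-0.43) and Mrpl55 (-0.39). Part of these differences lay in the control arrays. Against untreated, CpG and control ODN gave 0.88 and 0.24 for Mrpl30, 0.52 and -0.09 for Mrps6, and 0.40 and -0.17 for Mrpl22. They gave 0.24 and -0.29 for Mrpl3 and 0.04 and -0.44 for Mrps5. The lower members gave -0.25 and 0.31 (Mrpl53), -0.16 and 0.26 (Mrps24), and 0.01 and 0.40 (Mrpl55). Of these values, only those of Mrpl30 and Mrps6 with CpG were called.

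The array titles carry database numbers, and arrays with neighbouring numbers form 10 runs, 4 of them of 1 array. Of the 6 untreated arrays, 5 form a run of their own and the other shares a run with 2 CpG 3 h arrays. The run and the group therefore cannot be told apart in the comparisons of control ODN, 72 h, 5 days and later times with untreated. The same holds for CpG with control ODN at 3 h. The 9 h and 24 h arrays also shared no run with an untreated array, and only the CpG 3 h arrays link them to untreated. With the runs as a fixed block, which ties the early groups to untreated through that 1 untreated array, 0 members were called at 3 h, 9 h or 24 h. The median difference at 24 h was 0.49 in that fit, and without the block the same arrays and genes gave 19 called members. With the runs as a random block, 30 members were called at 24 h and 22 at 72 h.

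Control ODN, 72 h, 7 day and 14 day arrays share 1 run, so differences between these groups are within-run values. CpG 72 h against 14 days gave 46 of 75 members higher and 2 lower, beside 15.5% and 13.6% of all genes, with a median of 0.53. With the run as a fixed block the counts were 42 higher and 2 lower. Mrpl genes gave 30 of 47 higher and Mrps genes 16 of 28. In 43 members every 72 h array lay above every 14 day array, beside 14.6% of all genes. Without the 8 arrays that lacked over 1000 features, among them 72 h replicate 3 and 14 day replicates 2 and 4, 18 members were higher and 1 lower, with a median of 0.48. CpG 7 days against 14 days gave 17 higher and 1 lower (10.8% and 10.8% of all genes), with a median of 0.27. Without 7 day replicate 1, 14 day replicate 2 or 14 day replicate 4 this fell to 11 called members, and without the 8 arrays to 3. CpG 72 h against the control ODN arrays of the run gave 21 higher and 0 lower (7.61% and 9.3%), with a median of 0.29, though the times after injection differ. CpG 14 days against the same control arrays gave 1 higher and 6 lower (2.62% and 3.12%), with a median of -0.24. CpG 7 days against them gave 8 higher and 2 lower (10.2% and 14.6%), with a median of 0.04.

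CpG times were also compared with each other. CpG 24 h against 9 h gave 12 members higher and 0 lower (6.39% and 3.31% of all genes), with a median of 0.27. Leaving out single arrays moved that count between 3 and 23, and with the runs as a fixed block it was 2, against 5 without the block on the same arrays and genes. The largest difference was that of Mrpl42, 1.08 ± 0.19 (SE, adjusted p = 0.000243), followed by Mrpl28 (0.74), Mrpl23 (0.70) and Mrps21 (0.65). CpG 5 days against 72 h gave 0 members in either direction (limma; 1.24% and 2.18% of all genes), with a median of 0.06 and 2 members at an unadjusted p below 0.05. CpG 7 days against 72 h gave 0 higher and 2 lower (1.08% and 2.58%), Mrps6 (-0.71 ± 0.17, SE, adjusted p = 0.00955) and Mrps34 (-0.65), with a median over the members of -0.25. With array weights this comparison called 30 members.

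**Figure D3:**
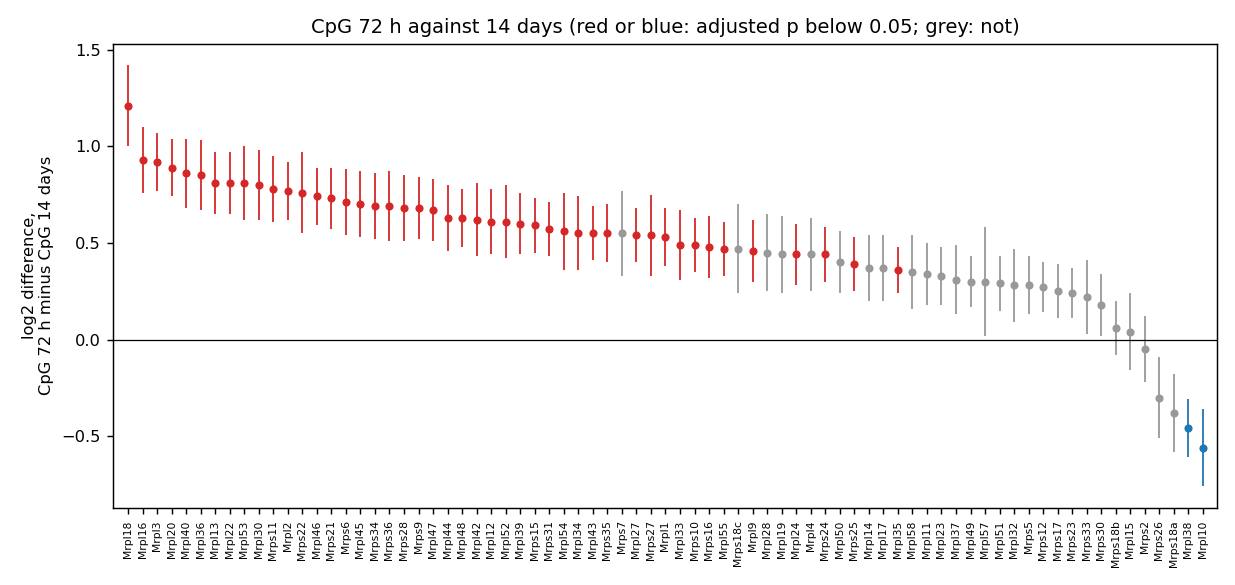
Points are the 75 members in order of their log2 difference between CpG 72 h and 14 days, arrays of 1 run, and bars are standard errors. The 46 red members were called higher at 72 h, led by Mrpl18 at 1.21, and the 2 blue members, Mrpl38 and Mrpl10, lower.

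Members differed in how far they moved, and upstream sequence is shown for some of those described next. RefSeq promoters (mouse build GRCm38.p6, 250 bases before to 50 after the annotated start) were matched to 66 of the 75 members by symbol. The 4 motifs searched are known from promoters of nuclear genes for mitochondrial proteins, and both strands were read: NRF1 as GCGC, then A, any base and GCGC, ETS as CCGGAAG, YY1 as AAGATGGC and the E-box as CACGTG. An ETS match was found in 25 member promoters (37.9%), against 15.9% of promoters of genes on the array and 9.93% of all promoters in the table. An NRF1 match was found in 13 (19.7%, against 9.17% and 5.19%), a YY1 match in 12 (18.2%, against 4.32% and 3.19%) and an E-box in 5 (7.58%, against 10.6% and 8.09%). NRF1 or ETS was present in 34 of the 66 (51.5%, against 23.1% of genes on the array). Matches after the start were counted too, among them the YY1 matches of Mrpl35, Mrpl37, Mrpl42, Mrpl49, Mrps7, Mrps18a, Mrps24 and Mrps27. A match is a description of the letters and not of a bound site. The stretches shown are all from members called higher at some time. Matches were also present in members not called at 24 h, 72 h or 5 days. Among these were Mrps26 (ETS and NRF1), Mrpl32 (NRF1 and YY1) and Mrps18a (ETS and YY1). Whether a match goes with the size of the change was not tested. Stretches upstream of the start are printed 5′ to 3′ on the strand of the gene, with 1 match, the motif or its reverse complement, in capitals. The Mrpl36 stretch also holds an E-box, left in lower case, and the Mrpl53 stretch ends inside another ETS match.
Mrpl30, NRF1, chr1:37890354-37890443, plus strand: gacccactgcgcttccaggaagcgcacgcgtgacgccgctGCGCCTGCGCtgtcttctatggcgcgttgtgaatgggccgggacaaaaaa
Mrpl12, NRF1, chr11:120484516-120484605, plus strand: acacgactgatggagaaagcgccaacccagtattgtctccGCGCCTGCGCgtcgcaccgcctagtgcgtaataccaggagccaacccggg
Mrpl53, ETS, chr6:83109009-83109095, plus strand: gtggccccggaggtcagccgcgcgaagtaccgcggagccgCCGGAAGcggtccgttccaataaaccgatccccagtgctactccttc
Mrps22, ETS, chr9:98601680-98601730, minus strand: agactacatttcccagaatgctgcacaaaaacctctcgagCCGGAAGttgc
Mrpl36, YY1, chr13:73330939-73331008, plus strand: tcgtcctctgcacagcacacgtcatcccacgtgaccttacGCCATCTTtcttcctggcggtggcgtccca

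Mrpl30, a large-subunit protein with a bacterial relative, was called higher earlier than any other member apart from Mrps6. Its untreated arrays ran from -0.93 to -0.32 with a median of -0.65. Its values were 0.16, -0.11, 0.38 and 0.46 at 3 h, and 0.42, 0.63, 0.42 and -0.21 at 24 h. Every array of both times was above every untreated array. Control ODN arrays, at -0.36, -0.60, -0.12 and -0.57, overlapped the untreated range. The difference from untreated was 0.88 ± 0.16 at 3 h (SE, adjusted p = 9.52e-05), 0.70 at 9 h, 0.97 ± 0.16 at 24 h (adjusted p = 4.18e-05), 0.64 at 72 h and 0.79 at 5 days, all called. The 14 day arrays were at -0.84, -0.91, -0.81 and -0.72, and the difference from untreated was not called.

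Mrpl42, a protein particular to the mitochondrial ribosome, was not called at 3 h or 9 h. Its untreated arrays ran from -0.58 to -0.14, and its 3 h arrays stood at -0.59, -0.68, -0.57 and -0.73. At 24 h its values were 0.39, 0.48, 0.99 and 0.34, all above the untreated range, with a difference of 0.96 ± 0.17 (SE, adjusted p = 0.000135). At 72 h the difference was 0.63 and at 5 days 0.62. Without 72 h replicate 3, at 0.61, the 72 h difference was 0.50 and lost its call (adjusted p = 0.0844). Without 5 day replicate 3, at 0.82, the 5 day difference was 0.41 and also lost it (adjusted p = 0.0721).

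Mrpl16, a core large-subunit protein with a bacterial relative, had the smallest p of the F test over the CpG times among the members (adjusted p = 2.06e-07). Its untreated arrays ran from -0.47 to -0.19. The 24 h arrays were at 0.48, 0.74, 0.74 and 0.05, the 72 h arrays at 0.26, 0.30, 0.94 and 0.44, and the 5 day arrays at -0.11, 0.34, 0.57 and 0.49. All of them lay above the untreated range. The differences were 0.85, 0.83 and 0.67, all called. The 9 day arrays, at -0.56, -1.12, -0.53 and -0.51, all lay below it, but that difference was not called.

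Mrpl40, another protein particular to the mitochondrial ribosome, had the largest difference of the members at 72 h, 0.96 ± 0.17 (SE, adjusted p = 0.000153). Its 72 h arrays stood at 0.15, 0.19, 0.84 and 0.22, and its untreated arrays between -0.93 and -0.38. The call held without replicate 3, and differences of 0.73 at 24 h and 0.80 at 5 days were called too. Mrpl36, of bacterial descent, stood at 1.26, 1.27, 1.32 and 1.14 at 72 h, all above its untreated arrays, which ran from -0.05 to 0.80. Its differences of 0.71 at 24 h, 0.74 ± 0.16 at 72 h (SE, adjusted p = 0.0021) and 0.65 at 5 days were called, and its 24 h and 5 day arrays overlapped the untreated range.

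Mrpl53, Mrpl18, Mrpl20 and Mrpl34 reached their highest level at 5 days. Mrpl53 is particular to mitochondria, and the others have bacterial relatives. Mrpl53 had untreated arrays between -0.72 and -0.29 and 5 day arrays at 0.34, 0.61, 0.24 and 0.80. Its difference was 0.94 ± 0.17 (SE, adjusted p = 6.92e-05), after 0.29 at 24 h (not called) and 0.59 at 72 h. The 72 h call was lost without replicate 1, 2 or 3 of that time (adjusted p = 0.0558, 0.051 and 0.067). The untreated arrays of Mrpl18 spread from -0.50 to 0.32. Its 5 day arrays stood at 0.81, 0.85, 0.55 and 0.78, all above that range, with a difference of 0.88 ± 0.19 (SE, adjusted p = 0.000475). Its 24 h arrays, at 0.81, 0.82, 0.26 and -0.32, overlapped untreated, and the 24 h difference of 0.53 was not called. Mrpl20 had untreated arrays between -0.02 and 0.38 and 5 day arrays at 0.86, 0.67, 1.25 and 1.05, a difference of 0.88 ± 0.14 (SE, adjusted p = 1.41e-05). Mrpl34 differed by 0.85 at 5 days, 0.60 at 72 h and 0.60 at 9 days. Its 72 h call was lost without replicate 2 (adjusted p = 0.0677) or 3 (adjusted p = 0.0652) of that time, and its 9 day call, the 1 higher call of that day, without 9 day replicate 4 (adjusted p = 0.12).

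**Figure D4:**
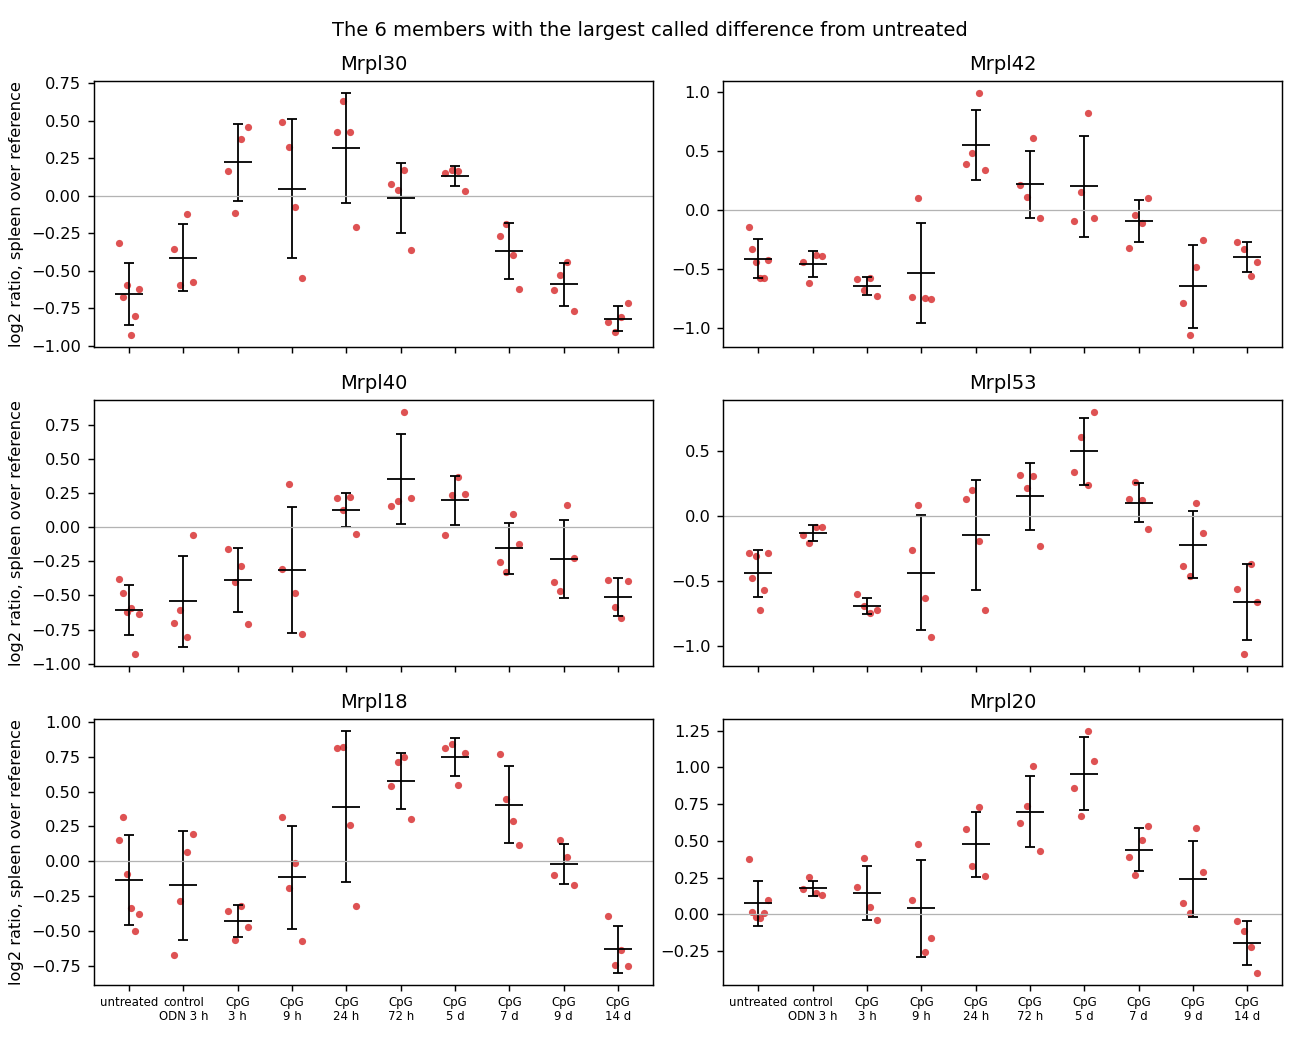
Each panel plots 1 member, with 1 point per array, the log2 ratio over the reference on the vertical axis, and the group mean and SD in black. Mrpl30 lies above its untreated range at times that include 3 h, 24 h and 5 days, and Mrpl42 at 24 h. Mrpl53, Mrpl18 and Mrpl20 are highest at 5 days.

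Mrpl12 forms part of the flexible stalk of the large subunit and also binds the mitochondrial RNA polymerase. Its untreated arrays ran from -0.50 to -0.10, its 24 h arrays stood at 0.11, 1.04, 0.48 and -0.00, and its 5 day arrays at 0.29, 0.30, 0.30 and 0.49. The differences of 0.69 at 24 h (adjusted p = 0.00276) and 0.63 at 5 days (adjusted p = 0.00232) were called and kept the call without any single array. The 72 h difference of 0.52 lost it without replicate 2 (adjusted p = 0.0677) or 3 (adjusted p = 0.0963). Mrpl10, the protein that anchors the stalk, took another course: its differences were -0.01 at 24 h, -0.08 at 72 h and -0.17 at 5 days, none called. Its 14 day arrays stood at 0.46, 0.50, 1.12 and 0.23, and Mrpl10 was lower at 72 h than at 14 days by -0.56 ± 0.20 (SE, adjusted p = 0.0292). That call was lost without 14 day replicate 3 (-0.38, adjusted p = 0.164), 72 h replicate 1 (-0.48) or 72 h replicate 2 (-0.55). Mrpl11, at the base of the stalk, was called against untreated at 24 h alone (0.55, adjusted p = 0.0124), and not without 24 h replicate 1 (adjusted p = 0.0554).

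Mrpl3 and Mrpl38 also differed between 72 h and 14 days, in opposite directions. Mrpl3, a core large-subunit protein, had 72 h arrays at 0.46, 0.43, -0.07 and 0.09 and 14 day arrays at -0.55, -0.97, -0.59 and -0.68. The difference between these times was 0.92 ± 0.15 (SE, adjusted p = 3.54e-05). Against untreated, Mrpl3 was higher at 24 h (0.49) and lower at 14 days (-0.53, adjusted p = 0.0235). The first call was lost without 24 h replicate 1 (adjusted p = 0.0702) or 2 (adjusted p = 0.0663), and the second without 14 day replicate 2 (adjusted p = 0.126) among others. Mrpl38, at -0.20, -0.05, 0.11 and 0.24 on the 14 day arrays, was the 1 member called higher than untreated at 14 days (0.46, adjusted p = 0.0379). These arrays overlapped the untreated range, and the call did not hold without each single array. Mrpl38 also differed from untreated by 0.32 at 24 h and 0.36 at 5 days, with a call at 1 of 24 h, 72 h and 5 days. Mrpl38 was lower at 72 h than at 14 days (-0.46). That call was lost without 14 day replicate 4 (adjusted p = 0.0651) or 72 h replicate 3 (adjusted p = 0.0518).

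Among the Mrps genes, Mrps22, a protein particular to mitochondria, had the largest difference at 24 h, 0.85 ± 0.19 (SE, adjusted p = 0.00256). Its untreated arrays ran from -0.81 to -0.14 and its 24 h arrays stood at 0.18, 0.06, 0.95 and 0.14, above that range. It was called at 72 h (0.74), though not without 72 h replicate 3 (0.55, adjusted p = 0.0822), and at 5 days (0.77) and 7 days (0.71). Mrps16, of bacterial descent, was called at 24 h (0.75), 72 h (0.44) and 5 days (0.71). Its 72 h call was lost without any of 7 single arrays, with the adjusted p then between 0.0539 and 0.117. Mrps6, of bacterial descent, was called at 3 h, 0.52 ± 0.15 (SE, adjusted p = 0.0196), from -1.42 ± 0.15 (SD, n = 6) in untreated to -0.90 ± 0.12 (SD, n = 4). Mrps18c, 1 of 3 related genes of the small-subunit protein S18, was called at 7 days (0.72, adjusted p = 0.0148), with a mean of 0.93 ± 0.06 (SD, n = 4) against 0.20 ± 0.21 (SD, n = 6). Its differences were 0.57 at 24 h, 0.47 at 72 h and 0.76 at 5 days, with a call at 1 of these times. Its relative Mrps18b was not called at 24 h (0.15), 72 h (-0.03) or 5 days (0.19). The 2 features of Mrps18b differed from untreated in opposite directions at 24 h (-0.18 and 0.48) and 72 h (-0.53 and 0.47). Mrps18a, whose protein sits in the large subunit, was not called at 24 h, 72 h or 5 days. Mrps30, also a large-subunit protein in spite of its name, was called at 5 days (0.44), but not without 5 day replicate 3 (adjusted p = 0.0594). Mrps12, which lies at the decoding site, and Mrps35 were not called at 24 h (0.29 and 0.27), 72 h (0.17 and 0.25) or 5 days (0.23 and 0.20). At 5 days the 2 features of Mrps12 differed from untreated by -0.15 and 0.61. Mrps23 was the 1 member called lower at 9 days (-0.46, adjusted p = 0.00774). Its 9 day arrays overlapped the untreated range, and the call did not hold without each single array.

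The members were alike in time course with exceptions. Across the 10 group means, the Pearson correlation of a member with the mean of the other members had a median of 0.79 and was above 0.5 for 66 of 75, with Mrpl13 and Mrps28 highest at 0.97. All members share the same arrays, reference and normalization. The correlation was below 0 for 4 members, Mrps26 (-0.51), Mrpl10 (-0.51), Mrpl15 (-0.28) and Mrps18a (-0.18). Genes whose proteins have bacterial relatives gave 24 of 46 called higher at 24 h, 17 at 72 h and 23 at 5 days. Genes particular to mitochondria gave 10 of 28, 10 and 19. Mrps36, now known as a component of the 2-oxoglutarate dehydrogenase complex rather than the ribosome, was counted in neither. Of the 24 members with several features, all features differed from untreated in the same direction in 15 at 24 h, 17 at 72 h and 17 at 5 days. Mrps15 was called at 24 h although its 3 features ranged from -0.38 to 0.98. Of the 34 members called at 24 h, 24 rested on 1 feature.

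Other genes of mitochondrial translation were read beside the members, from lists made by name. Of all genes tested, 8.03% were called higher at 24 h, 8.94% at 72 h and 17.5% at 5 days. The 24 h counts for translation factors and tRNA charging lie near that share. Of 12 mitochondrial translation factors, 1 was called higher at 24 h, 4 at 72 h and 4 at 5 days, none lower, with medians of 0.35, 0.40 and 0.39. The release factor Mtrf1 was higher at 24 h (0.80, adjusted p = 0.00165). The ribosome recycling factor Mrrf (0.84), the initiation factor Mtif2 (0.75) and the elongation factor Gfm1 (0.45) were higher at 72 h. Of 17 genes for charging mitochondrial tRNAs, the aminoacyl-tRNA synthetases and the amidotransferase subunits Qrsl1, Gatb and Gatc, 1 was called at 24 h and 5 at 5 days, where Lars2 (0.79), Tars2 (0.76) and Yars2 (0.71) were largest. Of the mitoribosome assembly factors, 0 of 20 were called at 24 h (limma; 3 at an unadjusted p below 0.05) and 6 of 19 at 5 days, among them the helicase Ddx28 (0.89), the GTPase Noa1 (0.83) and the RNA methyltransferase Mettl15 (0.67). Of 4 other mitoribosomal genes, Chchd1 was called at 24 h (0.58) and 5 days (0.58) and Dap3 at 5 days (0.32).

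At 3 h, 3 of 14 genes for mitochondrial RNA binding and processing were called higher. So were 2 of 16 for mitochondrial DNA maintenance and transcription, and none of either list was lower. Of all genes tested, 7.7% were called higher and 3.93% lower at that time. Pnpt1, a mitochondrial exoribonuclease, differed by 1.83 ± 0.15 (SE, adjusted p = 4.34e-12), and its partner helicase Supv3l1 by 0.91 and the RNA-binding protein Slirp by 0.63. The transcription factor of mitochondria Tfb2m differed by 1.04 and the elongation factor Tefm by 0.80. Tfb1m, which methylates the small-subunit ribosomal RNA, was not called at 3 h (0.15) or 24 h (0.44) and was at 72 h (0.69) and 5 days (0.94). Nrf1, the nuclear factor whose motif was searched above, was lower at 24 h (-0.61, adjusted p = 0.0141) and 72 h (-0.49). Twnk, the helicase of mitochondrial DNA, was lower at 72 h (-0.40) and 5 days (-0.54).

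Cytosolic ribosomal protein genes had medians near those of all genes. Of 68, 8 were called higher at 24 h, 3 at 72 h and 5 at 5 days, with 0, 1 and 4 lower and medians of 0.09, -0.03 and -0.04. CpG 72 h against 14 days gave 10 higher and 2 lower of these 68, with a median of 0.04. The list of nucleolar genes for making cytosolic ribosomes was higher earlier: 13 of 19 were called at 3 h (median 0.57). Of these 19, 9 were called at 24 h, 3 at 72 h and 11 at 5 days. The 19 include the transcription factor Myc, called at 3 h (1.49) and 24 h (0.49). Mitotic genes came later and stayed longer, with 0 of 23 higher and 2 lower at 24 h (median -0.24), 18 higher at 72 h, 21 at 5 days and 22 at 7 days (median 1.32). Of all genes tested, 7.7% were called higher at 3 h, 8.03% at 24 h and 8.94% at 72 h. The share was 17.5% at 5 days, 8.68% at 7 days and 15.5% for 72 h against 14 days. Differences between the lists were not tested.

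**Figure D5:**
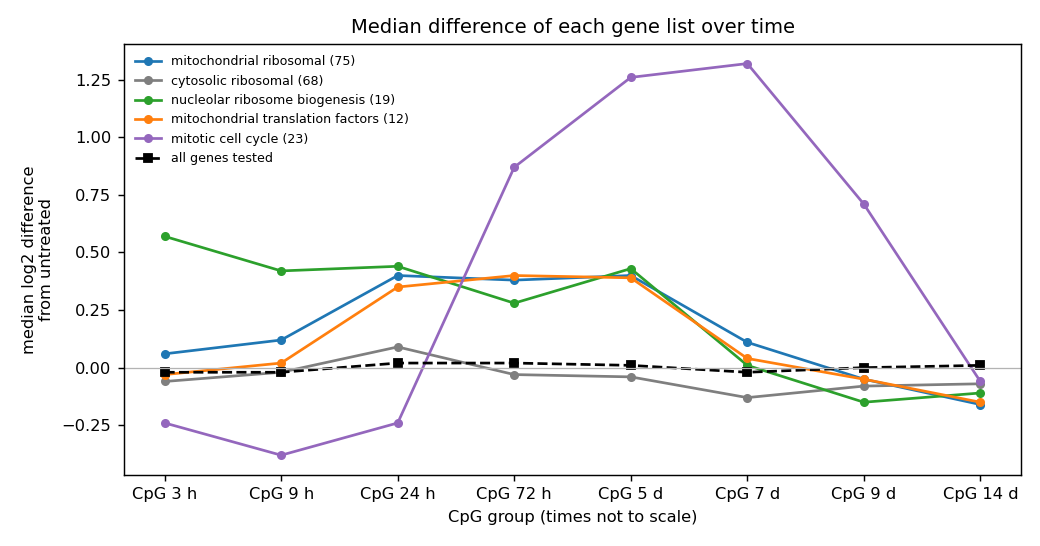
Lines join the median log2 difference from untreated of each gene list at the 8 CpG times, which are not spaced to scale, with list sizes in brackets. The mitochondrial ribosomal genes (blue) have medians of 0.40, 0.38 and 0.40 at 24 h, 72 h and 5 days, the nucleolar genes are highest at 3 h (0.57) and the mitotic genes at 7 days (1.32).

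The cell makeup of the spleens moved over the same times, and its part in the result was not tested. The mean of 5 macrophage markers was 1.55 ± 0.23 (SD, n = 6) in untreated spleens and 2.45 ± 0.18 at 24 h, 2.32 ± 0.17 at 72 h and 1.59 ± 0.11 at 5 days (SD, n = 4 each). Of these 5 genes, 3 were called higher at 24 h. The mean of 5 T cell markers went from 1.99 ± 0.23 to 1.12 ± 0.18 at 5 days, when 4 were called lower and 1 higher. The mean of 5 B cell markers went from 3.16 ± 0.25 to 2.49 ± 0.04 at 5 days, with 2 called lower. The mean of 9 neutrophil and precursor markers went from 2.57 ± 0.39 to 4.18 ± 0.22 at 5 days and to 5.55 ± 0.19 at 9 days. The mean of 7 erythroid markers was 3.63 ± 0.14 in untreated spleens and 3.03 ± 0.34 at 24 h. The 2 called lower at 24 h were Slc4a1 (-0.88) and Tfrc (-1.34). At 9 days Tfrc was called higher (0.98), beside 8.4% of all genes, and no other erythroid marker tested was called. Pancreas acinar markers, which a spleen should lack, ranged over single arrays from 0.50 to 6.20, with 3.42 ± 1.66 in untreated and 1.31 ± 0.38 at 14 days, and 0 of 5 were called at 24 h, 72 h or 5 days. Of all genes tested, 8.03% were called higher and 2.87% lower at 24 h, and 17.5% and 13.4% at 5 days. All values are log2 ratios, so no marker has a true 0.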

How the data were processed

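Spleen RNA (Cy5) and a common mouse reference RNA (Cy3) were hybridised to 2-colour arrays, per the labels. The deposited values are log2 ratios, already normalized by the authors, with array medians between -0.014 and 0.019; the base and the direction (spleen over reference) were inferred from the values and dyes, and the normalization method is not given in the sources used here. Of 30601 features, 23485 carried 1 gene symbol and were averaged per symbol. Arrays lacked 173 to 1740 features.

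All 42 arrays were fitted with 1 coefficient per group in limma 3.58.1 (R 4.3.3), with no block. Testing a gene required values on 3 or more arrays in each group compared. Benjamini-Hochberg adjusted p-values run over all genes tested, 2-sided, at 0.05. No pair of arrays was identical. The script was tested on simulated data. Figures used matplotlib 3.10.9 (python 3.11.15).

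The members and lists were chosen with earlier results of these data known, and the bacterial and mitochondrial classes and the comparisons of 24 h with 9 h, 7 days with 72 h and later times with control ODN after the values were seen. Named members were, per comparison, up to 4 called in each direction by size, the 6 largest over the CpG times, the smallest F test p and a panel (Mrpl41 was not analysed here), with up to 3 genes per list. Members that complete a count of 5 or fewer, and those named for likeness, features or subunit role, were chosen after their values were seen. Runs were formed from database numbers with gaps of at most 12. Alternatives covered normalization, blocks, array weights, features, thresholds and left-out arrays.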

Additional observations from a re-analysis of the deposited data

Results flagged for a closer look

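In groups of 4 to 6 arrays, an array was noted where its gap to the nearest other array was large against the range of the group (Dixon's limit). This held in 11 of 170 groups tested, and chance alone gives about 1 in 20.

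The mean over the members was -0.03 on 72 h replicate 4, with the other 3 arrays between 0.10 and 0.12. Mrps30 stood at -0.42 on the same array, with the others between -0.17 and -0.12. Mrpl40 stood at 0.84 on 72 h replicate 3, against 0.15 to 0.22, and Mrps22 at 0.95 on 24 h replicate 3, against 0.06 to 0.18. On 5 day replicate 4, Mrpl30 was at 0.03, against 0.15 to 0.17, and Mrpl12 at 0.49, against 0.29 to 0.30. Mrpl42 was at 0.10 on 9 h replicate 2, against -0.75 to -0.74. Mrpl20 was at 0.38 on untreated replicate 1, against -0.02 to 0.10. Mrpl16 was at -1.12 on 9 day replicate 2, against -0.56 to -0.51. Mrpl3 was at -0.83 on control ODN replicate 3, against -0.36 to -0.30. Mrps35 was at -0.66 on 7 day replicate 1, against -1.10 to -1.03.

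Times after CpG differed by direct test in 48 members between 72 h and 14 days (15.5% of all genes higher, 13.6% lower). Between 7 days and 14 days 18 differed (10.8% and 10.8%). Between 24 h and 9 h 12 differed (6.39% and 3.31%), of which 3 kept the call without each single array. Between 7 days and 72 h 2 differed (1.08% and 2.58%).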

How the results depend on the processing

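Counts are of members called against untreated at the time in brackets unless another pair is named, and are given where they moved by over 1.5 times. At an adjusted p below 0.01 they were 1 (3 h), 1 (9 h), 19 (24 h), 8 (72 h), 1 (7 days), 1 (9 days) and 0 (14 days), with 3 for CpG against control ODN, 8 for 7 against 14 days, 4 for 24 h against 9 h and 1 for 7 days against 72 h. With a log2 difference of at least 0.5 they were 2 (9 h), 15 (72 h), 1 (9 days) and 1 (14 days), with 5 and 10 for CpG against control ODN and 7 against 14 days. Quantile normalization gave 5 (3 h), 9 (9 h), 8 (7 days) and 1 (14 days), and scaling to 1 median absolute deviation 5, 9, 8 and 0. The 14 day median was then -0.11 and -0.08, and that of 72 h against 14 days 0.45 after scaling. Array weights gave 9 (3 h), 12 (9 h), 52 (72 h), 14 (7 days), 4 (9 days) and 4 (14 days), with 30 for 7 days against 72 h and 1 for 5 days against 72 h. Fitting only the 2 groups gave 7 (3 h), 2 (9 h), 21 (24 h), 9 (7 days) and 1 (14 days), with 5 for CpG against control ODN, 0 for 24 h against 9 h and 1 for 7 days against 72 h. Without the 8 arrays that lacked over 1000 features the counts were 1 (3 h), 1 (9 h), 6 (72 h), 21 (5 days) and 0 (14 days), with 19 for 72 h against 14 days, 3 for 7 against 14 days and 1 for 7 days against 72 h. Single features gave 3 (9 h), 5 (9 days) and 5 (14 days), and 1 for control ODN. Runs as a fixed block gave 0 (3 h), 0 (9 h) and 0 (24 h), with 2 for 24 h against 9 h and 1 for 7 days against 72 h. The same arrays and genes with no run block gave 1, 2, 19 and, for 24 h against 9 h, 5. Runs as a random block gave 3 (7 days) and 1 (14 days). Against control ODN of the run, 10 members were called at 7 days and 7 at 14 days, with medians of 0.29 (72 h) and -0.24 (14 days).

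The replicate block gave 3 (9 h), 17 (72 h), 3 (7 days), 1 (9 days) and 4 (14 days). Replicate numbers did not pair the samples: the deviations of 180 same-number pairs had a median correlation of 0.0261, against -0.0158 for 612 pairs of different number.

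Leaving out single arrays gave ranges of 1 to 3 (3 h), 1 to 12 (9 h), 21 to 46 (24 h), 10 to 32 (72 h), 31 to 43 (5 days), 2 to 6 (7 days), 0 to 3 (9 days), 0 to 3 (14 days) and 0 to 9 (control ODN). They were 3 to 9 for CpG against control ODN, 40 to 50 for 72 h against 14 days, 11 to 18 for 7 against 14 days, 3 to 23 for 24 h against 9 h, 1 to 4 for 7 days against 72 h and 0 to 0 for 5 days against 72 h. At 24 h the count was 21 without replicate 2 and 22 without replicate 3, and at 72 h 17, 11 and 10 without replicates 1, 2 and 3. Calls held without each single array in 18 of 34 members at 24 h and 7 of 27 at 72 h. They held in 26 of 43 at 5 days, 1 of 2 at 3 h and 1 of 5 at 9 h. At 7 days 2 of 5 held, and 0 of 2 at 9 days and at 14 days. Between CpG times, 35 of 48 held for 72 h against 14 days and 9 of 18 for 7 against 14 days. For 24 h against 9 h 3 of 12 held, and for 7 days against 72 h 1 of 2. For CpG against control ODN at 3 h, 3 of 8 held.

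Of 1858 alternatives for 88 values of named members, 1664 kept direction and call, 164 lost a call, 28 gained one and 2 reversed: Mrpl18 at 24 h with runs as a fixed block (-0.0015) and Mrps18b at 72 h without untreated replicate 4 (0.03). The causes were not tested. The number of arrays limits the precision.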
